A study of Mus musculus with 17 samples.

Results

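V1 interneurons of the mouse spinal cord were compared 5 days after birth (P5) and on the day of birth (P0), on 6 of the 17 arrays of the series. The members were chosen by label: 3 arrays of V1 cells at P5 and 3 at P0. All 6 came from mice of the genotype En1-Cre; Rosa.lsl.YFP, in which Cre recombinase made under the control of En1 switches on a yellow fluorescent reporter, so a cell is marked by having expressed En1 at any time. Spinal cords were dissociated, the fluorescent cells were sorted, and 1 to 5 ng of RNA was amplified and hybridized to Affymetrix mouse expression arrays. The second class, used here only beside the V1 change, was the dorsal class labelled dI4, sorted from Ptf1a-Cre; Rosa.lsl.YFP mice, with 2 arrays at P5 and 3 at P0. No other age or genotype entered and no treatment is named. The labels call the replicates biological and give no count of animals per array. P-values measure the spread between these samples.

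V1 interneurons are inhibitory neurons of the ventral cord that arise from En1-expressing progeny of p1 progenitors, and include Renshaw cells and Ia inhibitory interneurons, which shape motor neuron firing. In rodents the days around birth are a time when spinal inhibitory synapses mature, receptor subunits are exchanged, astrocytes differentiate and oligodendrocytes begin to myelinate. Astrocytes, oligodendrocytes and their precursors belong to other lineages than V1 neurons, and their transcripts are described below beside those of neurons.

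Values are log2 expression. The arrays of each age have their own value distribution, with medians over probe sets of 4.90 to 4.95 at P5 and 5.32 to 5.39 at P0. The 5 V1 samples were therefore quantile normalized together, which gives every sample the same distribution, and each gene also has a percentile among the 20678 genes measured on that array. P0 replicates 1 and 3 were close to identical (r = 0.999 over genes tested, with 11 genes apart by 2-fold) and were averaged and counted as 1 sample, beside replicate 2. The 3 P5 replicates were further apart (r between 0.935 and 0.949, and 1483 to 1814 genes apart by 2-fold). The median SD over genes was 0.28 at P5 and 0.12 at P0 on the log2 scale. The 27 control probe sets for bacterial genes, used as the background level, reached at most 2.60 after normalization. A gene at or below the highest of them in every sample of an age has only a bound, and its fold is then given as at least N-fold.

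Of 11630 genes tested, 666 were higher and 510 lower at P5 than at P0 at an adjusted p under 0.05 (limma, Benjamini-Hochberg), which is 5.73% and 4.39% of the genes tested and 10.1% in either direction. At least 2-fold differences made up 566 of the higher and 379 of the lower genes. The 3 P5 samples lay above both P0 samples for 24.8% of genes and below both for 27.5%. The split of the calls depended on the scaling: 56.6% of called genes were higher here, against 37.8% with the values as deposited, 47.6% with percentile ranks and 77.7% with each array centred on its median. The median difference of all genes tested was -0.04 here, -0.19 as deposited and 0.24 after centring. Small list medians near these sizes have no settled direction.

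How firmly a gene was called rested on the 2 P0 samples. Without P0 replicate 2 there were 129 calls, and without the averaged replicates 1 and 3 there were 176. Without P5 replicate 3 there were 711. Of the 70 called genes named in the text, 11 passed in every fit that left out 1 sample: Olig1, Pdgfra, Plekhb1, Nr1d1, Hcn2, Hsd3b3, Wdr90, Ppcdc, Plekho1, Zfp184 and Cartpt. Another 59 lost their call without P0 replicate 2, at log2 differences of the same sign. Sox11, Rab3a, Cbln2, Sdhb, Acan, Tubb2b, Bcas1, Bhlhe22, Cacna1a, Hmga2 and Jund lost their call whichever P5 replicate was left out. Under the 4 other scalings, 45 of the 70 were called each time, Slc1a3, Acan, Tubb2b, Hmga2 and Pou4f1 under 1, and Bhlhe22, Cacna1a and Jund under 2.

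En1, the homeobox gene that defines the class and drives the sort, was higher at P5. Its values were 10.39, 10.11 and 10.05 at P5, against 8.63 and 8.62 at P0. The groups do not overlap, the difference was 1.56 ± 0.16 (SE; adjusted p = 0.0103), and its mean percentile was 77.7 at P5 and 64.1 at P0. The gene used to mark the cells was well above background at both ages. The inhibitory machinery was among the brightest transcripts at both ages: Gad2, which makes GABA, averaged 14.55 at P5 and 14.46 at P0, at a percentile of 99.8 at each age. None of the 7 tested genes of that list was called in either direction. Slc32a1, the vesicular transporter of GABA and glycine, averaged 13.70 at P5 and 13.71 at P0 on its brightest probe set. Its 3 other probe sets had positive differences, and the mean of all 4 differed by 2.47 (adjusted p = 0.00962), so its direction depends on the probe set. None of the 6 motor neuron markers was bright enough to be tested.

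The 12 largest rises were led by genes of glia. Mal, a proteolipid of compact myelin, had 10.28, 11.25 and 9.76 at P5, against 3.07 and 2.81 at P0. Every P5 sample lay far above both P0 samples, and the difference was 7.49 ± 0.47 (adjusted p = 0.00255), a 180-fold higher level at P5. Mobp, the myelin-associated oligodendrocytic basic protein, had 11.17, 12.85 and 10.82 at P5, against 4.34 and 4.15 at P0 (165-fold, adjusted p = 0.00703). Gfap, the intermediate filament of astrocytes, had 11.23, 9.94 and 10.74 at P5, against 4.01 and 2.66 at P0 (157-fold, adjusted p = 0.00481). Mean percentiles of the 3 were 79.8, 88.6 and 81.5 at P5 and 36.6, 44.0 and 37.6 at P0. The Gfap difference of 7.30 was 6.65 without P0 replicate 2 and 7.94 without P0 replicates 1 and 3.

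Their promoters, 250 bases before to 50 after the annotated start in RefSeq on GRCm38.p6, are shown because they belong to the 3 largest rises. Capitals mark ACAAAG, the core letters bound by SOX factors, or its reverse complement CTTTGT, since Sox2 was itself called higher and Sox8 is in the precursor list. Mal lies at chr2:127656646-127656945 on the minus strand, Mobp at chr9:120149492-120149791 on the plus strand and Gfap at chr11:102897151-102897450 on the minus strand.
Mal: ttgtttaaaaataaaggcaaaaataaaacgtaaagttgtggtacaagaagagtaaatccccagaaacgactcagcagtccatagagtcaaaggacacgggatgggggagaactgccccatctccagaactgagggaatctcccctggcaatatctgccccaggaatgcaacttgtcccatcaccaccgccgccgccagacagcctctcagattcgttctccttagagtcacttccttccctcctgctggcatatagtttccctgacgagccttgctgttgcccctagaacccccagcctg
Mobp: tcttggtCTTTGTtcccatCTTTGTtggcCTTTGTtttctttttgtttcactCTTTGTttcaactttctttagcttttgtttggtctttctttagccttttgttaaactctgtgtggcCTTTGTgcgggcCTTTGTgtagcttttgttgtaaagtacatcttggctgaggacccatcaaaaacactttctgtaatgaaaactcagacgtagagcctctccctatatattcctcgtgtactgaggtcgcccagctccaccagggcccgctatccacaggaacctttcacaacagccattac
Gfap: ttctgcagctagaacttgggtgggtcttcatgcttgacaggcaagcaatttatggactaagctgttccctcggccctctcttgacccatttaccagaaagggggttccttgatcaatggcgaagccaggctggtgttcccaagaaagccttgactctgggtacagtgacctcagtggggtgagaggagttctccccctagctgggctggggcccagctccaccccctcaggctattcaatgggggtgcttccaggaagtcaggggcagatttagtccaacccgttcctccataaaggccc
Mobp held the letters 6 times, all as CTTTGT, and Mal and Gfap did not hold them. Over all 32851 promoters in the table, 18.7% hold the letters. Of the genes tested that have a promoter in the table, 15.9% hold them, against 17.2% of those called higher and 17.4% of those called lower. A match is a description of letters and shows no binding.

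The other 9 of the 12 included further genes of astrocytes, oligodendrocytes and connective tissue. Mlc1, a membrane protein of astrocyte endfeet, had 9.67, 6.51 and 10.26 at P5 and lay at the background level at P0. It was at least 76.1-fold higher at P5, with a fitted difference of 6.70. Apoe, a lipid carrier made by astrocytes, was at least 64.0-fold higher at P5, and Fa2h, which makes the hydroxylated lipids of myelin, at least 65.3-fold higher. The inward-rectifier potassium channel genes Kcnj10 and Kcnj16 were 80.6-fold and 64.1-fold higher, Apod 64.9-fold, Olig1, a transcription factor of the oligodendrocyte lineage, 61.1-fold, and S100b, a calcium-binding protein, 61.0-fold. Col1a2, a collagen of fibroblasts, was 76.2-fold higher at P5 and had 12.91 in P5 replicate 1, against 10.20 and 10.80 in the other P5 replicates. Its difference of 6.25 was 5.42 without P5 replicate 1. All 12 had higher P5 values in dI4 as well, and 11 of them were called there, where 15.2% of genes were called higher. P5 replicate 2 moved several of these differences: without it the fitted values were 6.71 for Mobp, 6.98 for Kcnj10 and 6.64 for Kcnj16. For Mlc1, Apoe and Fa2h, at the background level at P0, they were 7.85, 7.33 and 5.47, which are no exact sizes. Kcnj10 was at the background level in 1 of 2 P0 samples.

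**Figure D1:**
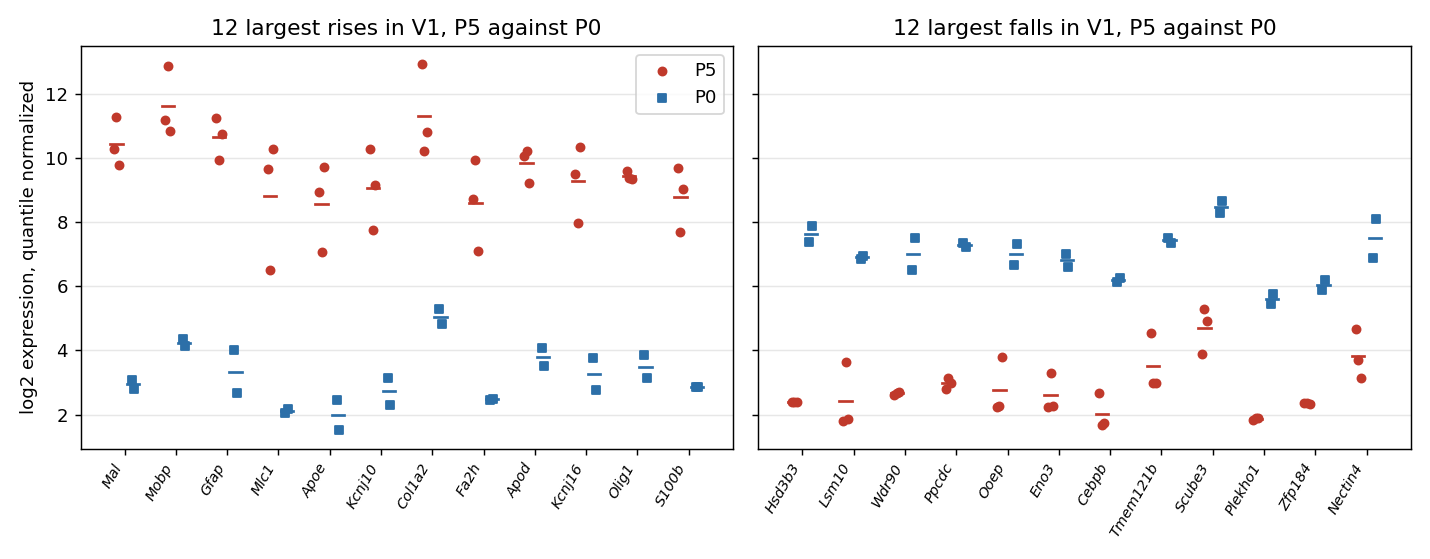
The 12 largest rises and the 12 largest falls at P5 against P0 that passed the test without overlap, with log2 expression on the vertical axis; circles are the 3 P5 samples, squares the mean of P0 replicates 1 and 3 and P0 replicate 2, and bars the group means. Every P5 point of the left panel lies above both P0 points of its gene, and the P5 points of the other panel are the lower ones in every gene.

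Lists of astrocyte and oligodendrocyte markers had higher values at P5. Of 13 tested astrocyte markers, 5 were called higher and none lower (background 5.73% higher), with all 13 differences above 0 and a median of 3.29, against -0.04 over all genes tested. With genes at the background level set to their bound, the medians of the astrocyte, precursor and endothelial lists were 3.10, 4.10 and 3.11. Slc1a3, the glutamate transporter Glast, had 10.67, 7.68 and 10.94 at P5, against 4.49 and 3.98 at P0 (difference 5.53, adjusted p = 0.0484). Aqp4, the water channel of endfeet, had 12.76, 10.95 and 13.05 at P5, against 8.44 and 6.55 at P0 (difference 4.76, adjusted p = 0.0428). P5 replicate 2 was the lowest P5 sample for both, and without it the differences were 6.54 for Slc1a3 and 5.40 for Aqp4. Without P0 replicate 2 the Aqp4 difference was 3.82. The transporter gene Slc1a2 and the enzyme genes Aldoc and Glul were bright at both ages and were not called, with differences of 0.93, 0.62 and 0.47.

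Of 10 oligodendrocyte precursor markers, 5 were called higher (5.73% of all genes), and in all 10 the P5 samples lay above both P0 samples (24.8% of all genes), with a median difference of 4.14. Pdgfra, the growth factor receptor that marks precursors, had 7.90, 7.87 and 8.34 at P5, against 4.03 and 3.68 at P0 (4.18 ± 0.22, adjusted p = 0.00167). Nkx2-2, a transcription factor of precursors, was at the background level at P0 and at least 18.7-fold higher at P5. Its fitted difference of 4.66, and 5.41 without P5 replicate 3, is therefore no exact size. Bcas1, a gene of cells turning into oligodendrocytes, had 12.41, 12.60 and 11.52 at P5, against 9.22 and 6.65 at P0 (adjusted p = 0.049), and its difference of 4.24 was 2.97 without P0 replicate 2. Sox8 differed by 3.57 (adjusted p = 0.07) and Olig2 by 3.02 (adjusted p = 0.111).

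Among 14 tested markers of myelinating oligodendrocytes, 4 were called higher (5.73% of all genes), 13 had all P5 samples above both P0 samples (24.8%), and the median difference was 3.56. Gal3st1, which makes the sulfatide of myelin, had 6.64, 6.76 and 6.27 at P5, against 3.21 and 3.15 at P0 (3.37 ± 0.19, adjusted p = 0.00204). Mbp, the myelin basic protein, was bright but was not called, and its 2 P0 samples differed from each other. It had 13.91, 14.84 and 13.71 at P5, against 10.99 in the mean of P0 replicates 1 and 3 and 7.45 in P0 replicate 2 (adjusted p = 0.0642). Without P0 replicate 2 the Mbp difference was 3.17, and without P0 replicates 1 and 3 it was 6.73.

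Summed over each list on a linear scale and taken as log2, astrocyte markers came to 15.96, 15.01 and 16.15 at P5, against 14.36 and 14.23 at P0. Precursor markers came to 13.19, 13.32 and 12.48 at P5, against 10.96 and 9.93 at P0. Myelin markers came to 15.08, 16.48 and 15.00 at P5, against 12.60 and 11.52 at P0. The P5 samples thus lay above both P0 samples in all 3 sums. P5 replicate 2 was the lowest P5 sample for astrocyte markers and the highest for myelin markers.

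**Figure D2:**
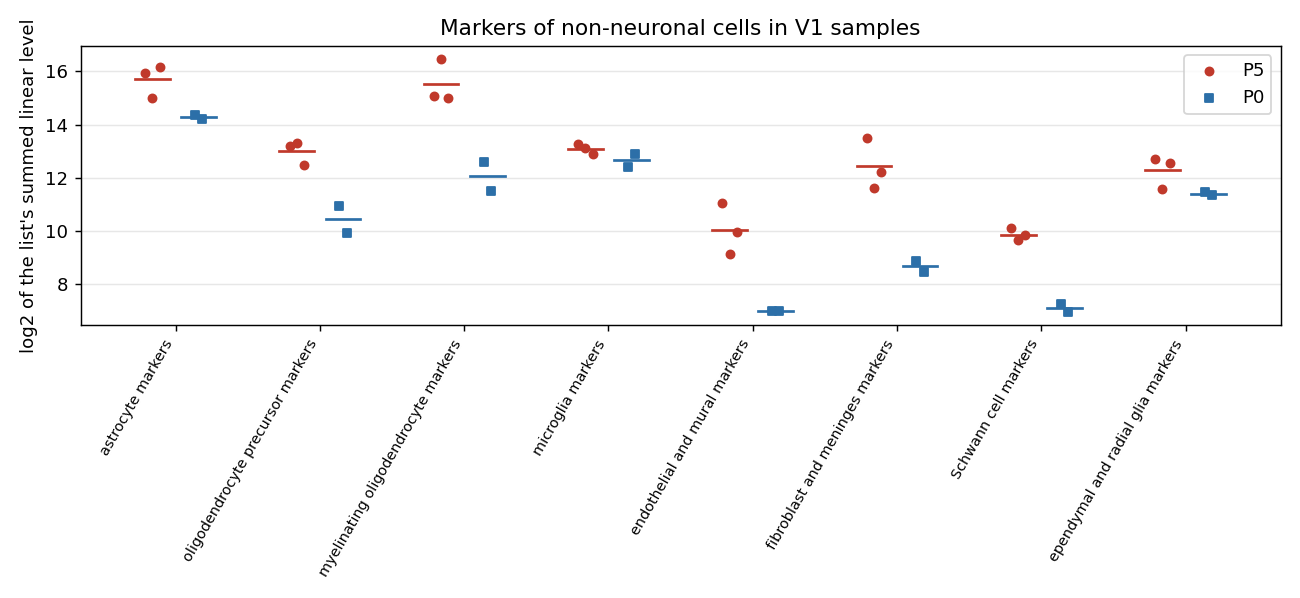
Summed level of the listed markers of 8 non-neuronal cell types in each V1 sample, as log2 of the sum of linear values; circles are the P5 samples, squares the P0 samples and bars group means. The sums of astrocyte, precursor, myelin, endothelial, fibroblast, Schwann cell and ependymal markers were higher in every P5 sample than in either P0 sample, and the microglial sums lay closest, at 13.27, 13.12 and 12.90 at P5 against 12.43 and 12.88 at P0.

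A few vascular and connective tissue genes were called, beside 5.73% of all genes called higher. Of 4 endothelial and mural markers tested, only Rgs5, a regulator of G-protein signalling in pericytes, was called higher (27.0-fold, adjusted p = 0.0372; log2 difference 4.75, or 5.48 without P0 replicate 2), and Flt1, a VEGF receptor at the background level at P0, was not (adjusted p = 0.056). Of 4 fibroblast markers tested, Col1a1 and Col1a2 were called, at differences of 3.98 and 6.25, and Col3a1 and Igf2 were not, at 2.62 and 0.56. The P5 samples lay above both P0 samples for 2 of these 4. Dcn, Lum and Ogn, too dim to be tested, differed by 0.93, 0.13 and 0.29. Over all 7 listed fibroblast markers, tested or not, the median was 0.93. All 4 endothelial and mural markers had every P5 sample above both P0 samples (24.8% of all genes), with a median of 3.27. Of the 9 listed endothelial and mural markers too dim to be tested, Cldn5 and Kdr were at the background level at P0 and not at P5, and Pecam1, Cdh5 and Slco1a4 were there at both ages. None of 7 tested microglial markers was called, 6 had positive differences, 4 had every P5 sample above both P0 samples, and the median was 1.17, or 0.59 without P0 replicates 1 and 3. C1qc, a complement gene, had the highest of these differences, at 3.09. The related genes C1qa and C1qb, too dim to be tested, went the other way, at -0.34 and -1.16. Over all 14 listed microglial markers, tested or not, the median was 0.15. Tmem119 and Trem2, too dim to be tested, were at the background level at both ages. Plekhb1, listed for Schwann cells and also made by oligodendrocytes, had 9.60, 9.43 and 9.15 at P5, against 5.11 and 4.81 at P0 (adjusted p = 0.00134).

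In bulk RNA from sorted cells, more cells of a type and more RNA per cell of that type cannot be told apart. Glial transcripts were present at P0 too, at lower values, and their part in the changes of the neuronal genes given next was not tested. Ccnd2, a cyclin of dividing cells, differed by 5.05 and Mcm2, a replication helicase subunit, by 2.88, and both were called. They were 2 of 11 tested cell cycle genes (5.73% of all genes were called higher), a list with 8 differences above 0 and a median of 1.29. Sox2, which marks radial glia, ependyma and glial precursors, was 38.6-fold higher at P5 (adjusted p = 0.0094). Without P0 replicate 2 the differences were 4.26 for Ccnd2 and 4.62 for Sox2, against 5.05 and 5.27 with all samples.

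The neuronal genes moved by smaller steps. Of 19 tested genes for receptors of GABA and glycine or for chloride transporters, 2 were called higher, Glra1 among them, and none lower. With 5.73% of all genes called higher, this share is near the background. All P5 samples lay above both P0 samples for 9 of the 19 and below both for 4 (24.8% and 27.5% of all genes). The median was 0.22, or 0.14 without P0 replicate 2 and 0.58 with arrays centred. Glra1, the adult alpha subunit of the glycine receptor, had 14.26, 13.44 and 13.52 at P5, against 12.01 and 11.45 at P0. The groups were apart, with a difference of 2.01 ± 0.34 (4.03-fold, adjusted p = 0.0338) and a mean percentile of 98.7 at P5 and 89.9 at P0. Glra2, the subunit that dominates in immature neurons, had 12.47, 12.52 and 12.51 at P5, against 12.77 and 13.05 at P0, a difference of -0.41 ± 0.15 that did not pass (adjusted p = 0.15). The P5 samples of Glra2 lay below both P0 samples. The difference between the subunits was not tested.

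Gabra2, a GABA-A receptor subunit more prominent in immature neurons, had 10.02, 9.42 and 9.27 at P5, against 10.81 and 10.26 at P0 (-0.96 ± 0.31, adjusted p = 0.128). Slc12a5, the potassium-chloride exporter KCC2 that lowers neuronal chloride, averaged 14.29 at P5 and 14.07 at P0 on its brightest probe set. That is a difference of 0.22 (adjusted p = 0.367). Its other probe set had a difference of 2.94, so the size of the Slc12a5 change depends on the probe set. Slc12a2, the importer NKCC1, which opposes KCC2, differed by 0.33 (adjusted p = 0.543), with overlapping groups.

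Of 22 glutamate receptor genes tested, Grik5 and Grin1 were called higher and none lower (median 0.12, and -0.01 with the values as deposited or 0.025 without P5 replicate 3). That share too is near the background of 5.73%. All P5 samples lay above both P0 samples for 8 of the 22 and below both for 6 (24.8% and 27.5% of all genes). Grin1, the obligatory NMDA receptor subunit, had 9.40, 8.66 and 9.01 at P5, against 7.01 and 6.58 at P0 (2.23 ± 0.28, adjusted p = 0.0171). Grik5, a high-affinity kainate receptor subunit, had 7.04, 6.19 and 6.16 at P5, against 3.27 in both P0 samples (9.15-fold, adjusted p = 0.00939). Neither of the NMDA receptor subunits that are exchanged in development was called. Grin2a, the later one, had 8.42, 7.69 and 8.47 at P5, against 6.12 and 4.19 at P0 (adjusted p = 0.0552). The earlier one, Grin2b, averaged 11.68 at P5 and 11.88 at P0, with overlapping values (adjusted p = 0.463). Gria2 and Gria4, AMPA receptor subunits, were not called, at -0.23 and 0.33.

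Among 28 voltage-gated channel genes, 3 were called higher (5.73% of all genes) and none lower. All P5 samples lay above both P0 samples for 13 of the 28 and below both for 3 (24.8% and 27.5% of all genes). The median was 0.32, or 0.16 without either P0 replicate 2 or P5 replicate 1, 0.19 as deposited and 0.62 with arrays centred. Hcn2, a hyperpolarization-activated cation channel, had 5.11, 5.12 and 5.05 at P5 and lay at the background level at P0, at 2.47 and 2.36. That is at least 5.79-fold higher at P5 (adjusted p = 0.00134), with mean percentiles of 45.7 at P5 and 24.1 at P0. Cacna1a, the pore of P/Q-type calcium channels, had 9.53, 9.73 and 9.68 at P5, against 8.98 and 8.97 at P0 (0.67 ± 0.14, adjusted p = 0.0499). It has a further probe set that went the other way, at -0.87. Scn1a and Scn3a, adult and embryonic sodium channel subunits, differed by -0.06 and -0.29 and were not called.

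Of 28 release genes, 3 were called higher (5.73% of all genes) and none lower. All P5 samples lay above both P0 samples for 15 of the 28 and below both for 3 (24.8% and 27.5% of all genes). The median was 0.30, or 0.14 without P0 replicate 2, 0.46 without P0 replicates 1 and 3, 0.20 as deposited and 0.62 with arrays centred. Sncb, beta-synuclein, had 11.47, 11.10 and 11.13 at P5, against 10.09 and 9.81 at P0 (2.43-fold, adjusted p = 0.0249). Rab3a, a vesicle GTPase, was 2.18-fold higher at P5 (adjusted p = 0.0378). Syt1, the calcium sensor of fast release, was 1.90-fold higher (adjusted p = 0.0263), with 1 of its 4 probe sets going the other way by -2.06. Snap25 and Syp, release and vesicle proteins already near the top of the array, differed by -0.03 and 0.19 and were not called. Vamp1 and Syt2, isoforms of fast-spiking synapses, differed by 0.87 and 0.39 and were not called.

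**Figure D3:**
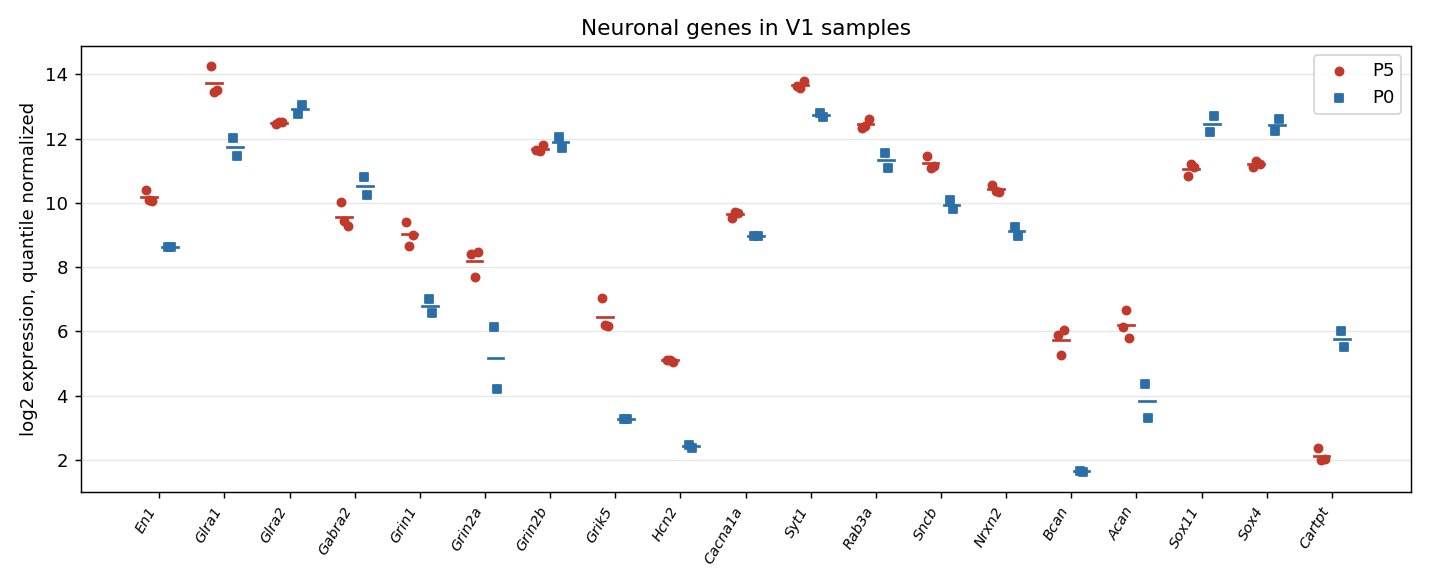
Log2 expression of the V1 identity gene, receptors, channels, release genes, matrix genes and transcription factors named in the text; circles are P5 samples, squares P0 samples and bars group means. Glra1, Grin1, Grik5 and Hcn2 were higher at every P5 point, and Glra2, Sox11, Sox4 and Cartpt lower.

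Adhesion, axon and matrix genes added a few calls. Nrxn2, a presynaptic organizer, was 2.50-fold higher at P5 (adjusted p = 0.0158), and Cbln2, a secreted synaptic organizer, was lower by 0.93 in log2 (10.95 at P5, 11.88 at P0). They were the only called members of 21 tested, a share near the 10.1% of all genes. All P5 samples lay above both P0 samples for 9 of the 21 and below both for 3 (24.8% and 27.5% of all genes). Thy1, a glycoprotein of mature axons, had 14.03, 14.10 and 14.14 at P5, against 13.19 and 12.91 at P0 (2.06-fold, adjusted p = 0.0228). It was the only called gene of 15 for axon structure, beside 5.73% of all genes called higher. P5 samples of that list lay above both P0 samples for 9 of the 15 genes and below both for 2 (24.8% and 27.5% of all genes). Perineuronal net and matrix genes had a larger median, 1.66, with 3 of 13 called higher (5.73% of all genes). Acan, aggrecan, had 6.14, 6.68 and 5.81 at P5, against 4.36 and 3.31 at P0 (5.18-fold, adjusted p = 0.0387), and was called under 1 of 4 other scalings. Bcan, brevican, was at the background level at P0 and at least 9.01-fold higher at P5. Ptprz1, a proteoglycan receptor phosphatase, was 2.39-fold higher. Bcan and Ptprz1 are also made by astrocytes and oligodendrocyte precursors, whose called markers rose in the same samples.

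Among genes of immature neurons, Sox11 had 10.83, 11.22 and 11.11 at P5, against 12.20 and 12.72 at P0 (-1.41 ± 0.23, adjusted p = 0.0316), and Sox4, the related factor of differentiating neurons, differed by -1.21 ± 0.17 (adjusted p = 0.0225), with 1 of its 4 brighter probe sets at 0.29. The list of 25 such genes had 2 called lower and 1 higher, near the 10.1% of all genes called, with a median of -0.15 that changed sign when arrays were centred on the median (0.21). P5 samples lay below both P0 samples for 11 of the 25 and above both for 6 (27.5% and 24.8% of all genes). Tubb2b, the called higher member, a tubulin, had 15.96 in each P5 sample, against 15.27 and 15.26 at P0 (adjusted p = 0.0356), and was called under 1 of 4 other scalings. Axon guidance genes (31 tested) had 1 called each way, beside 10.1% of all genes called. Unc5b, a netrin receptor, was 9.48-fold higher. Efnb1, an ephrin, was lower by 0.94 in log2 on its brightest probe set. The mean of its 3 probe sets, 2 of them dim, differed by 0.025 and was not called (adjusted p = 0.895).

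Transcription factors that subdivide V1 cells had mostly negative differences: 18 of 20, with a median of -0.60. All P5 samples lay below both P0 samples for 12 (background 27.5%), and 1 was called, lower (background 4.39%). Bhlhe22 was the called gene, at 11.17, 11.23 and 11.19 at P5, against 11.81 in both P0 samples (adjusted p = 0.0483). The median kept its sign under each scaling, with -0.73 as deposited and -0.30 after centring. Foxd3, an early V1 factor, was also lower, at 9.05, 8.76 and 9.13 at P5, against 10.09 and 10.12 at P0 (adjusted p = 0.025). Lhx1 differed by -1.76 and did not pass (adjusted p = 0.174).

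**Figure D4:**
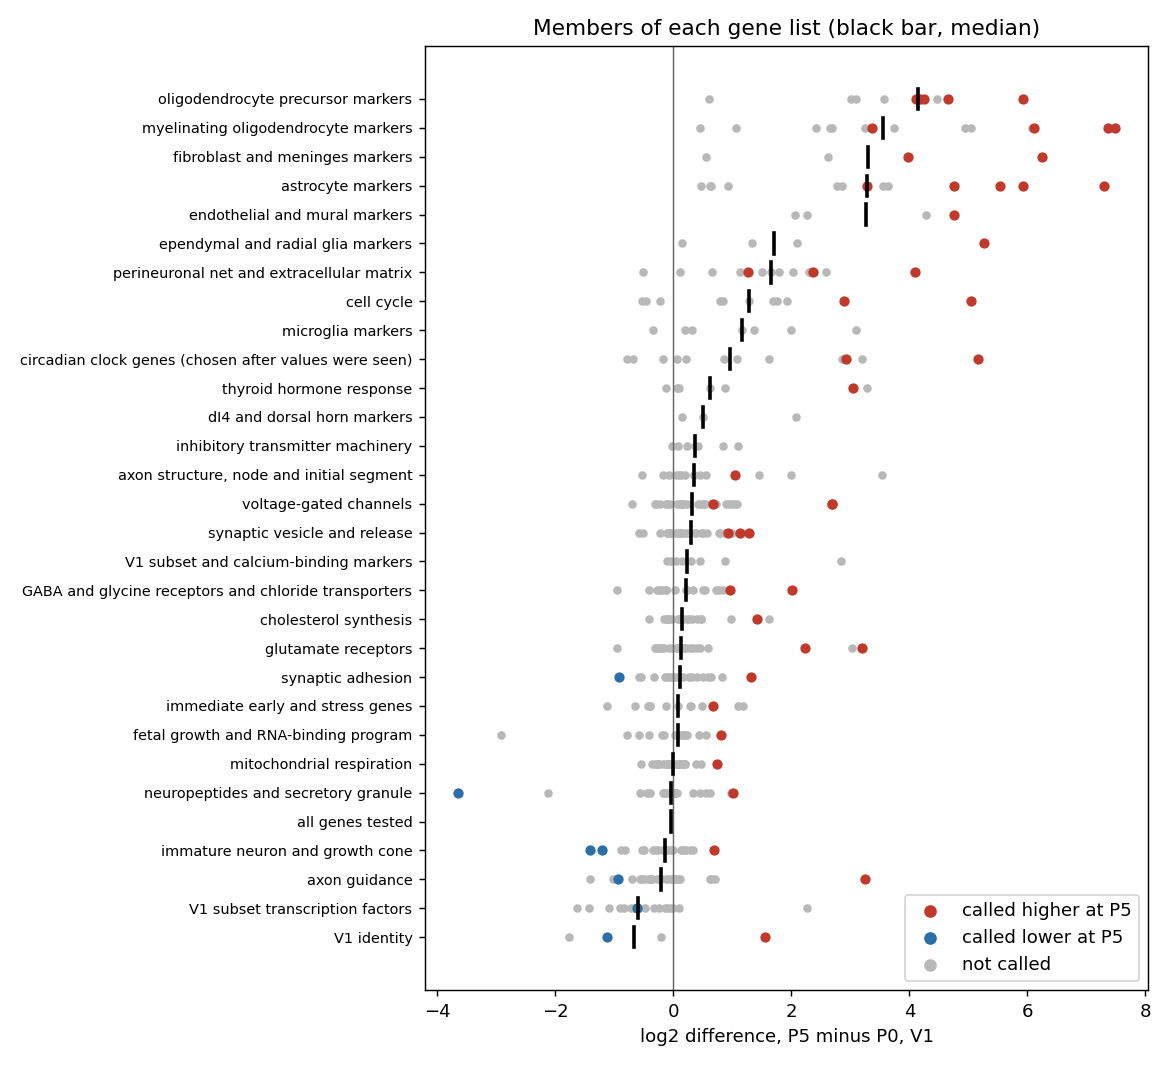
Log2 difference, P5 minus P0, of each tested member of the gene lists with at least 3 tested members, with called higher members in red, called lower in blue and the rest in grey; black bars are the medians, and the row of all genes tested holds its median alone. The astrocyte, precursor and myelin lists have medians of 3.29 to 4.14, the microglial and ependymal lists 1.17 and 1.71, and the receptor, channel and release lists between 0.12 and 0.32.

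The remaining lists each had few calls, beside 5.73% of all genes called higher and 4.39% called lower. Cartpt, a neuropeptide precursor, was at the background level at P5 and at least 9.17-fold lower than at P0, and Chga, a granule protein, was 2.03-fold higher at P5 (adjusted p = 0.0211). Sdhb of the respiratory chain was higher by 0.74, the only called gene of 29, with a median of -0.01, or 0.30 after centring. Dhcr7 of cholesterol synthesis was 2.67-fold higher (adjusted p = 0.0123), the only called gene of 21, with a median of 0.15. Klf9, a transcription factor that responds to thyroid hormone, had 10.99, 9.56 and 10.12 at P5, against 6.73 and 7.62 at P0 (8.25-fold, adjusted p = 0.0349). It was the only called gene of 7 tested in the thyroid hormone list, with a median of 0.63, or 0.15 over all 11 measured. Hr and Nrgn of that list were at the background level at both ages, and Thra differed by 0.06.

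The 12 largest falls were of genes near the middle of the array at P0, at mean percentiles of 5.36 to 44.5 at P5 and 48.6 to 63.0 at P0. Hsd3b3, a steroid dehydrogenase of a family of near-identical copies that its probe set may not separate, was at least 33.1-fold lower at P5 (2.38, 2.39 and 2.41 at P5, against 7.38 and 7.87 at P0). Ppcdc, an enzyme of coenzyme A synthesis, had 2.81, 3.14 and 2.99 at P5, against 7.35 and 7.21 at P0 (-4.30 ± 0.16, adjusted p = 0.00134). Cebpb, a transcription factor, averaged 2.03 at P5 and 6.19 at P0. Plekho1 and Zfp184 were at the background level in all 3 P5 samples, and at least 8.18-fold and 11.1-fold lower there than at P0. Cebpb, Lsm10, Ooep and Eno3 were at that level in 2 of 3 P5 samples, so their fitted differences, of -4.47 to -4.16, are no exact size. Wdr90, Tmem121b, Scube3 and Nectin4 were above it in every sample, with differences of -4.34 to -3.66. Without P5 replicate 2 the fitted Lsm10 difference was -5.09, and without P0 replicate 2 the Nectin4 difference was -3.05. All 12 were called lower in dI4 as well, where 22.1% of genes were called lower. As deposited, pairs of V1 arrays at P5 shared 2323 to 3024 identical probe-set values, against 2 to 17 at P0. In dI4 the pair at P5 shared 1348, against 2 to 6 at P0. Whether this difference between the ages bears on the falls was not tested.

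The change was set against the dI4 change over the same interval. The 2 differences used separate samples of both ages. The V1 change differed from the dI4 change for 278 of 11630 genes (2.39%), 199 of them more positive in V1 and 79 more negative. Of the 666 V1 genes called higher, 620 had a positive dI4 difference, and of the 510 called lower, 489 a negative one. The shares of all genes with each dI4 sign are not given here, so no excess can be read from these counts. Of the 1176 called V1 genes, 68 were among the 278. Leaving out 1 sample gave between 3 and 407 such genes, with 3 without dI4 P0 replicate 2. The mean of V1 P0 replicates 1 and 3 was not left out in these fits. Hcn2 had the lowest adjusted p among the named genes (0.000177). Its dI4 values, 1.75 and 1.76 at P5 and 2.36 to 2.41 at P0, were below the highest control of the V1 samples, and V1 was at the background level at P0, so the size of its change has no exact value in either class. Gfap differed by 7.24 in V1 and 2.45 in dI4 (adjusted p = 0.039). In dI4, normalized jointly with V1, Gfap had 11.01, 11.38 and 10.83 at P0 and 14.27 and 12.79 at P5. In V1, normalized without dI4, it had 4.01 and 2.66 at P0, so the classes started from different levels.

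**Figure D5:**
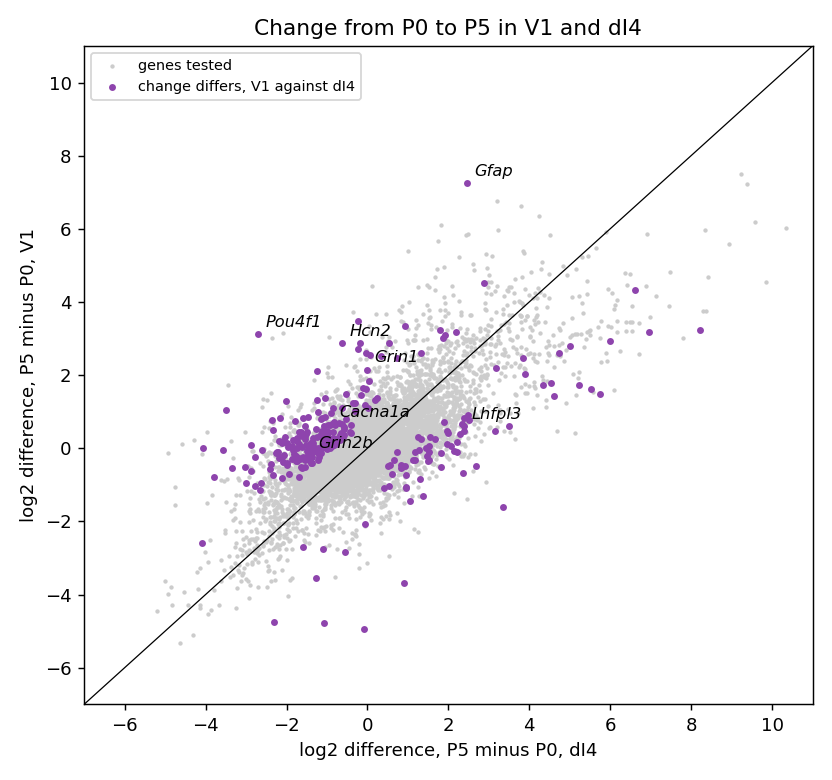
Change from P0 to P5 in V1 (vertical) against dI4 (horizontal) for the 11630 genes tested, in log2, with the 278 genes whose change differed between the classes in purple and the line of equal change. Hcn2, Gfap, Grin1 and Cacna1a lie above the line and Lhfpl3 below it.

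The synaptic, channel and axon lists had lower medians in dI4. Synaptic release genes had a median of 0.29 in V1 and -0.42 in dI4 in the joint fit, and voltage-gated channels 0.32 in V1 and -0.33 in dI4. Over all genes the medians were -0.04 in V1 and -0.12 in dI4. Of 28 genes each, 1 release gene and 3 channel genes passed the test of the difference, against 2.39% of all genes. Astrocyte, precursor and myelin lists had positive medians in both classes. The astrocyte median was 3.27 in V1 and 1.66 in dI4, with Gfap the 1 gene that passed the difference test, and the myelin median was 3.66 in V1 and 6.04 in dI4, with none that passed. Gfap was already bright in dI4 at P0, and these medians compare changes, not levels. Microglial markers had a median of 1.16 in V1 and -2.37 in dI4, and none passed the test of the difference.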

How the data were processed

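Log2 expression of 45101 probe sets was deposited by the authors as background-corrected, normalized values. Partek 6.6, RMA and GCRMA are listed in the submitters' processing notes, and what each did is not stated there. A single gene was named by 37826 probe sets, several by 1399 and none by 5812, beside 64 controls. Symbols were updated through a GRCm38.p6 gene table, where 34668 identifiers were found. Each of 20678 genes had 1 probe set, the brightest on average. The 5 V1 samples were quantile normalized together, because value distributions differ by age as if each age had been normalized alone, so that step and age cannot be told apart. Genes above the array median in at least 2 of 5 samples were tested (11630) with limma 3.58.1 in R 4.3.3 (3 residual and 1.69 prior degrees of freedom), with Benjamini-Hochberg adjustment. The dI4 change was tested in a joint fit of both classes as an interaction. The array number limits precision. The fit was checked on simulated data, with 200 of 11630 genes changed and the same SD at both ages for each gene. In the real samples the spread differed by age and the share of changed genes is not known, so the simulated rates need not hold there. On the simulated data the fit called 19 of 100 genes changed by 1 in log2, 71 of 100 changed by 3, and 5 unchanged genes. A gene that was not called may therefore still differ between the ages.

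The text names En1, the 12 largest called rises and falls without overlap, up to 4 called genes each way and 3 bright uncalled genes per list, and 7 subunit pairs; a few of these are not reported here. The members and lists were chosen with earlier results of these data known. Same-numbered P5 and P0 samples had correlated deviations of 0.0015, 0.101 and 0.0956, and the numbers were not treated as pairs. Alternatives are given at the end. Promoters came from RefSeq, GRCm38.p6.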

Additional observations from a re-analysis of the deposited data

Results flagged for a closer look

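Among the named genes, 11 had a change from P0 to P5 that differed between V1 and dI4 (limma interaction, adjusted over 11630 genes, of which 2.39% passed). Hcn2 differed by 3.50 (adjusted p = 0.000177), a fitted value with V1 at P0 at the background level and dI4 values under 2.60 at both ages, Gfap by 4.79 (0.039), Grin1 by 2.16 (0.0449) and Cacna1a by 1.54 (0.02). Nrxn2 differed by 1.12 (0.0431), Cacna2d2, a calcium channel auxiliary subunit, by 1.06 (0.0366), Mapt, tau, by 0.93 (0.0369) and Chga by 1.33 (0.0404). Grin2b differed by 1.20 (0.0449), with a V1 change of -0.20 and a dI4 change of -1.40. Pou4f1, a factor of excitatory and sensory neurons, differed by 5.81 (0.0226): it was called higher in V1, at 8.18, 6.21 and 7.04 at P5 against 3.83 and 4.11 at P0, and lower in dI4, at -2.69. Lhfpl3, listed for oligodendrocyte precursors, differed by -1.78 (0.0451), with 0.61 in V1 and 2.39 in dI4.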

How the results depend on the processing

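Between 711 and 1047 genes were called when a P5 replicate was left out, and 129 and 176 when a P0 sample was; over all 5 such fits there were 129 to 1047 calls, 67 to 646 higher and 62 to 401 lower (95 and 81 without P0 replicates 1 and 3). Entering P0 replicates 1 and 3 separately gave 2992 calls (1515 higher, 1477 lower). Testing all genes gave 5008 (2519 and 2489), and fitting V1 and dI4 together 2063 (1076 and 987). Higher calls numbered 1223 with each array centred on its median. Lower calls numbered 831 with the values as deposited, 818 with the mean of all probe sets and 788 with 1 weight per group, an alternative chosen after seeing the data. A replicate block, with P0 replicates 1 and 3 separate, gave 1684 calls (940 and 744), and for the class difference 697 (470 and 227). Separate P0 replicates gave 950 for that difference (643 and 307). Leaving out samples, other than the mean of V1 P0 replicates 1 and 3, gave 3 to 407 (3 to 255 and 0 to 152). With the mean of all probe sets Slc32a1 was 2.47 (adjusted p = 0.00962), Cadm3 0.68 (0.0418), Syt1 -0.031 (0.896) and Efnb1 0.025 (0.895). The cause of these moves was not tested, except that fits with fewer or more samples test with fewer or more degrees of freedom. Of 2672 alternative values of named genes, 2331 kept direction and call, 248 lost the call, 89 gained it and 4 reversed a called direction; a further 74 changes of sign in genes never called are counted as kept. Dim genes are limited by background: 34 genes called higher had P0 at the control level, and 11 called lower had P5 there.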

Other observations

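Genes of the circadian clock were listed after their values had been seen, and support nothing. Nr1d1, the clock repressor Rev-erb alpha, had 7.75, 7.66 and 7.77 at P5, against 2.87 and 2.28 at P0 (5.16 ± 0.22, adjusted p = 0.00134), and was at the background level in 1 of 2 P0 samples. Per3, a period gene, had 7.91, 7.67 and 6.49 at P5, against 4.38 and 4.49 at P0 (2.92, adjusted p = 0.0308). They were the 2 called of 12 tested clock genes, beside 5.73% of all genes called higher. Clock, Cry2 and Nr1d2 differed by 0.06, -0.17 and 0.21 without passing. The dI4 changes of Nr1d1 and Per3 were 5.30 and 4.74. The labels give no hour of collection.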
